A study of Mus musculus with 6 samples.

Results

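Annexins are proteins that bind acidic phospholipids when calcium rises, and 8 annexin genes and 2 genes of their small S100 partner proteins were followed here in mouse liver RNA. The set is Anxa1, Anxa2, Anxa3, Anxa4, Anxa5, Anxa6, Anxa7, Anxa11, S100a10 and S100a11, 10 of the 46095 gene symbols in the deposited table, found by exact symbol. The family was selected on these same libraries, by the measured levels of its genes in knockout against wild type, so those differences are given as a description, and the counts of calls among them support nothing.

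An annexin sits on the inner face of the plasma membrane or on vesicles, where it links membranes to each other and to actin. S100 proteins are small proteins that work as dimers, and many of them, though not S100A10, sense calcium. A dimer of S100A10 holds a pair of annexin A2 molecules together at the membrane. S100A11 binds annexin A1 and annexin A2 in a like way. Annexins seal torn plasma membrane, steer endocytosis and exocytosis, and on the cell surface the annexin A2 and S100A10 complex binds plasminogen. In liver, annexin A2 is known as low in resting hepatocytes and abundant in bile duct, endothelial and immune cells.

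The libraries came from C57BL/6 mice after 26 weeks on a high-fat diet (HFD), which both groups received. The 3 wild-type libraries were set against 3 libraries titled as knockouts of ARRB1, the gene of the scaffold protein beta-arrestin 1, known for ending the signals of G protein-coupled receptors. The libraries are called WT1 to WT3 and KO1 to KO3 below, by the replicate number in the titles. The source is labelled liver and the cell type hepatocyte; the labels give neither the kind of knockout allele nor the sex, and do not say whether a library is 1 animal. The genotype labels read ARRB1-/-, ARRB2-/- and ARRB3-/- for KO1, KO2 and KO3 and so differ from the titles in KO2 and KO3.

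Arrb1 itself was at 3.86, 22.7 and 16.9 FPKM (fragments per kilobase of gene, scaled to library depth, a level that allows for gene length) in WT1 to WT3 and lay between 0.918 and 1.16 FPKM in the knockout libraries. Reads assigned to genes, recovered from the steps of the FPKM values, came to 13354000 in KO1 and lay between 26948000 and 33873000 in the others. The members rested on 53 to 11360 reads per library. Hepatocyte markers dominated each library, with Alb, the albumin gene, between 27740 and 35463 FPKM. Markers of other liver cells were present too, so the material was not hepatocytes alone by this measure, and their levels are given below beside the annexin results. In such bulk RNA, more cells of a type and more RNA per cell cannot be told apart.

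Of the 10 genes, 9 had every knockout library above every wild-type library, and only Anxa3 overlapped between the groups. Across all 10633 genes tested (mean of at least 1 FPKM), the share with every knockout library above every wild-type library was 23.4%. With limma's test across those genes on log2(FPKM + 1), adjusted by the Benjamini-Hochberg method with a threshold of 0.05, Anxa2, Anxa5 and Anxa7 were called higher and none of the 10 was called lower. The share of all tested genes called higher was 5.30%, the share called lower was 1.60%, and the share called in either direction was 6.90%. Calls in the higher direction made up 76.8% of all calls, 59.9% with median-of-ratios scaling and 64.5% with quantile normalization. The median log2 fold change (knockout minus wild type) was 0.58 over the members and 0.07 over all tested genes. The count of members called was 1, Anxa2, on omission of WT1, WT2, KO2 or KO3, 2 on omission of WT3 and 4 on omission of KO1. It was 0 with no filter on low values and 6 on the TPM scale, where each library sums to the same total. The share of all tested genes called higher moved too. It lay between 0.94% and 4.03% with 1 library left out, and was 0.392% with no filter and 9.31% on the TPM scale. All 10 members passed the filter on low values.

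**Figure D1:**
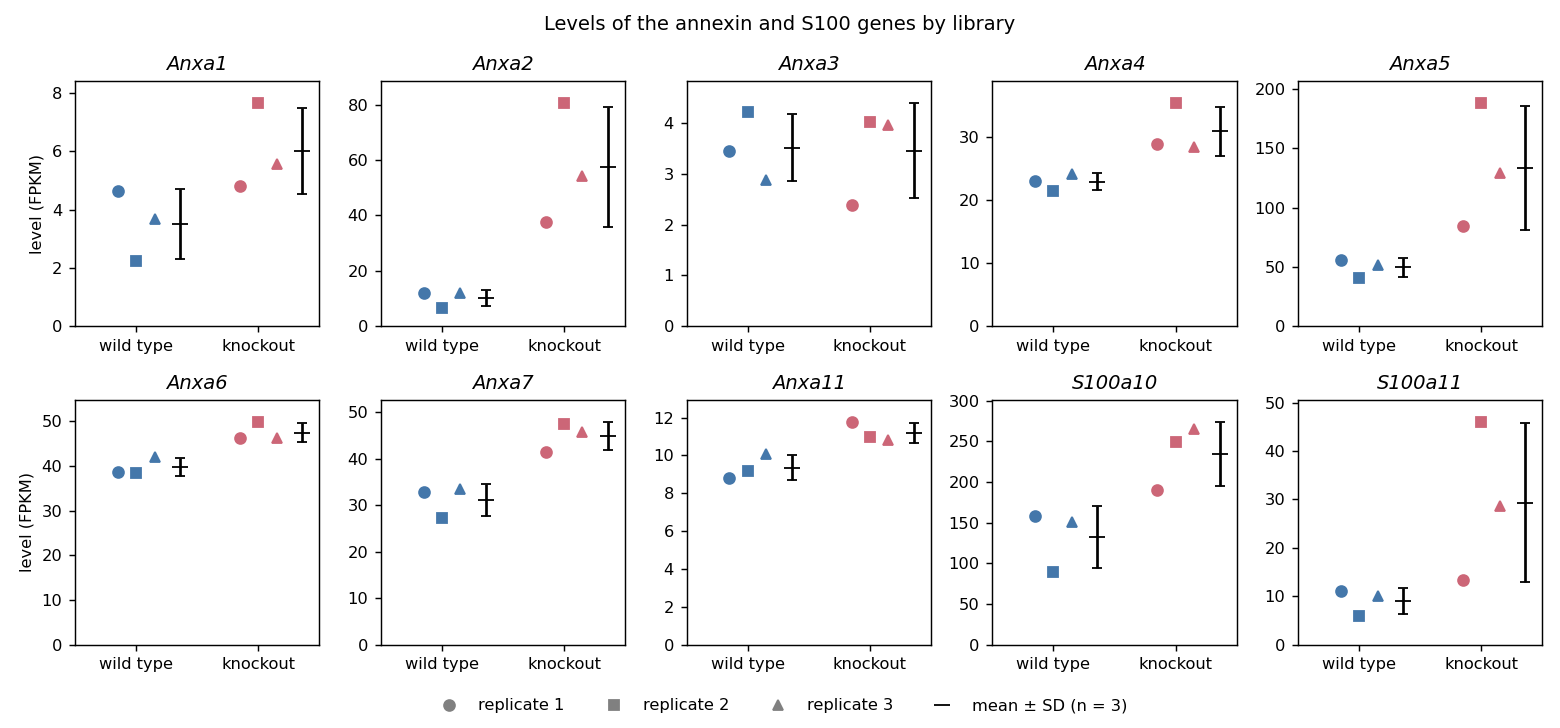
Level of each gene (vertical axis, FPKM, from 0) in the wild-type (blue) and knockout (red) libraries, with replicates 1 to 3 as circles, squares and triangles and the mean ± SD (n = 3) in black. Anxa2 was between 6.63 and 11.9 FPKM in the wild-type libraries and between 37.8 and 80.5 FPKM in knockout, while the ranges of Anxa3 overlapped.

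**Figure D2:**
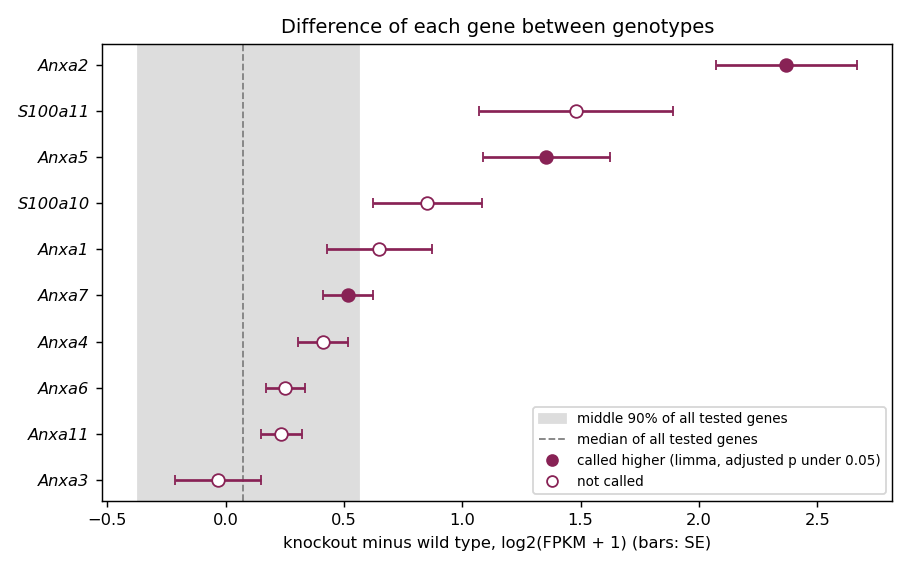
Difference of each gene between genotypes (horizontal axis, knockout minus wild type on the log2(FPKM + 1) scale, bars SE), with filled points for genes called higher by limma. The grey band holds the middle 90% of all tested genes, from -0.37 to 0.57; Anxa2, S100a11, Anxa5, S100a10 and Anxa1 lie to its right.

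Anxa2, on chromosome 9 (69453620 to 69491795, plus strand, GRCm38), encodes the annexin that pairs with S100A10, and it had the largest difference of the 10. Its level was 11.9, 6.63 and 11.9 FPKM in WT1 to WT3 against 37.8, 80.5 and 54.3 FPKM in KO1 to KO3. The lowest knockout library thus exceeded the highest wild-type library by 25.8 FPKM, a gap wider than the spread within wild type. The means were 10.1 ± 3.05 and 57.5 ± 21.6 FPKM (SD, n = 3 each), a log2 fold change of 2.37 ± 0.297 (SE). Of the 10633 tested genes, 7 had a log2 fold change at least that large, Anxa2 included. With each library left out in turn its log2 fold change ran from 2.10 (KO2 left out) to 2.63 (KO1 left out), and it stayed called each time. Its gene overlaps the annotated antisense gene Gm16144 and the miRNA gene Mir3109, and reads of overlapping genes could not be told apart. The same limit holds for Anxa1 (1500015L24Rik), Anxa3 (Gm42603), Anxa4 (Gm44036), Anxa5 (Mir7009) and Anxa11 (the antisense gene Anxa11os). Of these overlapping genes, 1500015L24Rik, Mir3109 and Mir7009 had a mean of 0 FPKM, and the others had no value listed.

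S100a10 (chromosome 3, 93555080 to 93564643, plus strand) encodes the partner of annexin A2 and was the most abundant of the 10 genes in both groups. It measured 158, 88.9 and 151 FPKM in wild type against 190.4, 249 and 265 FPKM in knockout. The groups did not overlap, but the wild-type libraries were themselves spread, with WT2 far below the other two. The means were 133 ± 38.0 and 235 ± 39.4 FPKM (SD, n = 3 each), a log2 fold change of 0.85 ± 0.230 (SE), and the gene was not called. Without WT2 its log2 fold change was 0.59.

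The level of S100a10 divided by that of Anxa2 was 13.3, 13.4 and 12.7 in WT1 to WT3 against 5.04, 3.09 and 4.89 in KO1 to KO3. The ratio was nearly constant among the wild-type libraries, although both genes were lower in WT2 than in the others. It was lower in each knockout library, with means of 13.1 ± 0.392 and 4.34 ± 1.08 (SD, n = 3 each). S100a10 thus exceeded Anxa2 per unit of length in all 6 libraries, by a smaller factor in knockout. These ratios compare RNA levels and say nothing of the amounts of protein.

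S100a11 lies next to S100a10 on chromosome 3 (93520488 to 93526287, plus strand), with 28792 bases and 1 annotated pseudogene, Gm29950, between them. It encodes the partner of annexins A1 and A2. Its level was 11.1, 5.90 and 9.95 FPKM in wild type against 13.3, 46.0 and 28.6 FPKM in knockout. KO1 was close to the wild-type libraries, 2.19 FPKM above the highest of them, and KO2 was 3.47 times KO1. The means were 8.98 ± 2.72 and 29.3 ± 16.4 FPKM (SD, n = 3 each), a log2 fold change of 1.48 ± 0.409 (SE). That SE was the largest among the members, and the gene was not called. Without KO1, the shallowest library, the log2 fold change was 1.94 and the gene was called.

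The promoters of Anxa2 and S100a11 are shown because these were the members with the largest log2 fold changes, and that of Anxa11, a member with a small one, for comparison. RefSeq (GRCm38.p6) gave 9 windows for 7 of the 10 members, each from 250 bases before to 50 bases after a transcript start. The stretch of each window before any annotated transcript of the gene is printed, 5′ to 3′ on the strand of the gene, with AP-1 motifs (TGANTCA on either strand) in capitals. The stretches are chr9:69453433-69453619 (plus strand), chr3:93520246-93520487 (plus strand) and chr14:25841905-25842154 (plus strand).
Anxa2: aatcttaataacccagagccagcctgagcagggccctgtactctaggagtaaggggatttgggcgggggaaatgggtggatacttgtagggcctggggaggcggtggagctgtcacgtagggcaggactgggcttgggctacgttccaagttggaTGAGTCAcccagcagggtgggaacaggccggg
S100a11: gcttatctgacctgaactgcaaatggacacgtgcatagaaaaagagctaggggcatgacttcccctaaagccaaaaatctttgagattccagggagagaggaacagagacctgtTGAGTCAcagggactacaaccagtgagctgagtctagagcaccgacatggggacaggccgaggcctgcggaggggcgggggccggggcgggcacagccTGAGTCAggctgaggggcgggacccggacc
Anxa11: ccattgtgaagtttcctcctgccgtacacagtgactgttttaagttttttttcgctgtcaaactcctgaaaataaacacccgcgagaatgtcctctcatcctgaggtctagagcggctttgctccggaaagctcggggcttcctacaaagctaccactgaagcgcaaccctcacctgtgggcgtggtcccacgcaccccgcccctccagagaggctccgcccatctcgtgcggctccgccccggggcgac

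The Anxa2 window held 1 AP-1 match, starting at position -95 from the RefSeq start (the start base is 0), and the S100a11 window held 2, at positions -136 and -38. The motif was in 7.81% of the 32851 windows of the same length. The windows of Anxa1, Anxa4, Anxa5, Anxa7 and Anxa11 held no AP-1 match. The GC box (GGGCGG on either strand), which 35.7% of all windows held, was found 3 times in each of the Anxa2, S100a11 and Anxa11 windows and also in those of Anxa4 and Anxa7. A TATA box (TATAAA on either strand, 13.6% of all windows) was found in the windows of Anxa2, at position -17, and Anxa1, at position -32. The TEAD motif (GGAATG, 14.7% of all windows) occurred in the Anxa1 window, and neither the cyclic AMP response element (TGACGTCA, 1.79%) nor a direct repeat of nuclear receptor sites (AGGTCA 2 times with 1 base between, 0.0396%) occurred in any member window. Matches nearer to the start than the printed stretch, such as the TATA box of Anxa2, lie in annotated transcripts and are not shown. None of the AP-1 matches overlapped a match of the other motifs. A match describes the letters of the window, and the motifs were chosen after the values of the genes were seen.

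Anxa5, on chromosome 3 (36448923 to 36475894, minus strand), encodes annexin A5, which covers exposed phosphatidylserine and is widely used as a probe of dying cells. It was the most abundant annexin gene in each of the 6 libraries. Its level was 55.8, 40.7 and 51.7 FPKM in wild type against 84.0, 188 and 129 FPKM in knockout. The lowest knockout library lay 28.2 FPKM above the highest wild-type library, and the knockout libraries were spread by a factor of 2.24. The means were 49.4 ± 7.82 and 134 ± 52.1 FPKM (SD, n = 3 each), a log2 fold change of 1.35 ± 0.268 (SE). Its call was lost on omission of any library but KO1, where log2 fold changes lay between 1.07 (KO2 left out) and 1.45 (WT1 left out); with KO1 left out it was 1.65 and the call held.

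Anxa7 (chromosome 14, 20455260 to 20480133, minus strand) encodes annexin A7, also named synexin, which acts in membrane fusion during secretion. It measured 32.7, 27.2 and 33.5 FPKM in wild type against 41.5, 47.4 and 45.6 FPKM in knockout. The difference was small but the spread was small as well, and the groups were 8.02 FPKM apart at their nearest. The means were 31.1 ± 3.41 and 44.8 ± 3.05 FPKM (SD, n = 3 each), a log2 fold change of 0.52 ± 0.105 (SE). The call was lost on omission of WT1, WT2, KO2 or KO3, with log2 fold changes of 0.55, 0.42, 0.48 and 0.50 in that order.

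Anxa6 and Anxa4 were abundant in both groups and differed little. Anxa6 (chromosome 11, 54979108 to 55033445, minus strand) encodes the largest annexin, with a doubled core, which acts on cholesterol-rich endosomes. It measured 38.7, 38.3 and 42.0 FPKM in wild type against 46.2, 49.9 and 46.3 FPKM in knockout (log2 fold change 0.25 ± 0.0816 SE). Anxa4 (chromosome 6, 86736840 to 86793584, minus strand) encodes an annexin of epithelial membranes. Its level was 23.1, 21.5 and 24.2 FPKM in wild type against 29.0, 35.4 and 28.5 FPKM in knockout (log2 fold change 0.41 ± 0.106 SE). In both genes the knockout libraries were all above the wild-type libraries, by 4.21 and 4.32 FPKM at the nearest, and neither gene was called.

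Anxa11 (chromosome 14, 25842156 to 25886804, plus strand) encodes an annexin that tethers RNA granules to lysosomes. Its level was 8.80, 9.16 and 10.1 FPKM in wild type against 11.8, 10.95 and 10.8 FPKM in knockout. The knockout libraries were higher by 0.737 FPKM at the nearest, and the log2 fold change of 0.24 ± 0.0870 (SE) was not called. It was the one member that was highest in KO1 among the knockouts.

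Anxa1 and Anxa3 were the 2 members with the lowest levels. Anxa1 (chromosome 19, 20373428 to 20390944, minus strand) encodes annexin A1, a glucocorticoid-induced protein that dampens inflammation through formyl peptide receptors. It measured 4.63, 2.23 and 3.67 FPKM in wild type against 4.79, 7.65 and 5.55 FPKM in knockout. The nearest libraries of the 2 groups were 0.168 FPKM apart, with 215 reads in WT1 and 93 in KO1, and the log2 fold change of 0.65 ± 0.224 (SE) was not called. Anxa3 (chromosome 5, 96793339 to 96845966, plus strand), which encodes an annexin abundant in neutrophils, stood at 3.46, 4.22 and 2.89 FPKM in wild type against 2.39, 4.04 and 3.97 FPKM in knockout. The groups overlapped and its log2 fold change of -0.03 ± 0.182 (SE) was not called. That sign turned on the TPM scale (0.0089), with array weights (0.033), on omission of WT2 (0.077) and on omission of KO1 (0.16).

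**Figure D3:**
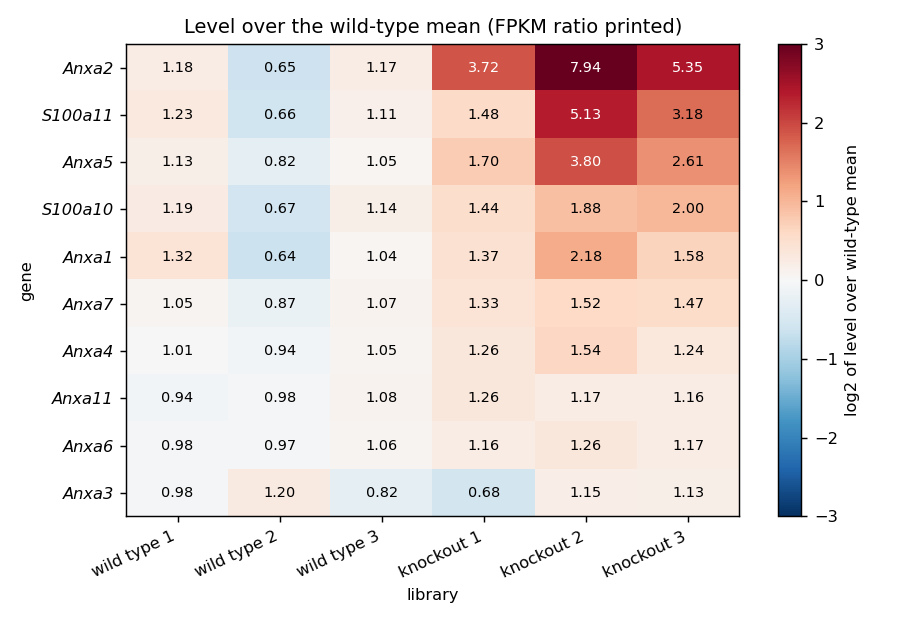
Level of each gene in each library divided by the wild-type mean of that gene, printed in each cell and coloured by its log2 (red above, blue below the wild-type mean). KO2 holds the highest ratio for 8 of the 10 genes among the knockout libraries, up to 7.94 for Anxa2, and WT2 the lowest for 8 of 10 among the wild-type libraries.

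The libraries within a group were not alike. Among the knockout libraries, 8 of the 10 genes were highest in KO2 and 8 were lowest in KO1. Among the wild-type libraries, 8 of the 10 were lowest in WT2. Relative to the wild-type mean, Anxa2 was at 3.72, 7.94 and 5.35 in KO1 to KO3, S100a11 at 1.48, 5.13 and 3.18, and Anxa5 at 1.70, 3.80 and 2.61. These 3 genes thus kept 1 order of libraries, whereas S100a10 was highest in KO3.

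Summed over the 8 annexin genes, the level was 179, 150.0 and 179.8 FPKM in WT1 to WT3 against 257, 424 and 324 FPKM in KO1 to KO3. Each knockout library was above each wild-type library, and the means were 170 ± 17.0 and 335 ± 83.8 FPKM (SD, n = 3 each). Anxa2 made up 5.89 ± 1.28% of that sum in wild type and 16.8 ± 2.16% in knockout, and Anxa5 made up 29.0 ± 2.02% and 38.9 ± 5.90%. The sum without Anxa2 and Anxa5 was 110 ± 6.88 FPKM in wild type against 144 ± 10.2 FPKM in knockout, so most of the difference in the sum lay in those 2 genes.

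**Figure D4:**
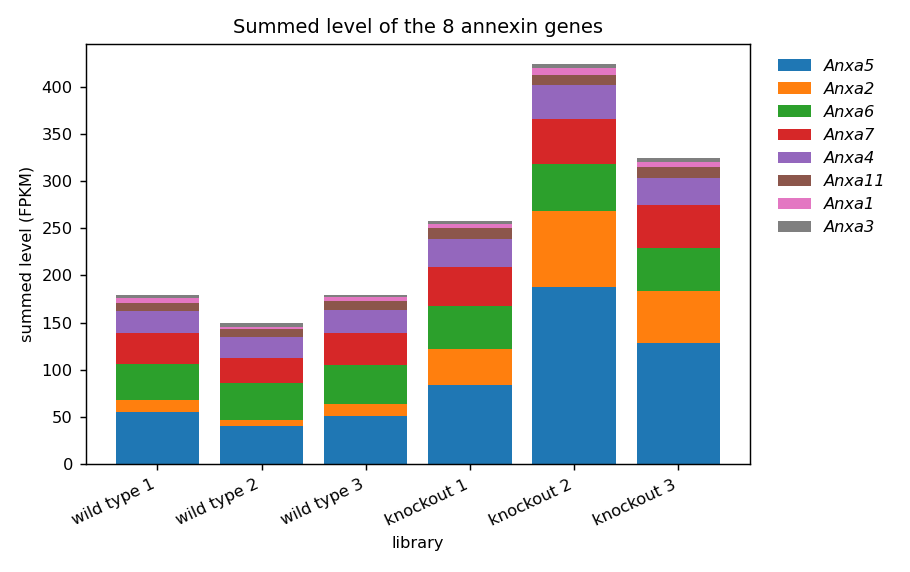
Summed level of the 8 annexin genes (vertical axis, FPKM, from 0) in each library, stacked by gene. The sum runs from 150.0 to 179.8 FPKM in the wild-type libraries and from 257 to 424 FPKM in knockout, and the Anxa5 and Anxa2 parts at the bottom differ most.

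In wild type the order of mean levels was S100a10, Anxa5, Anxa6, Anxa7, Anxa4, Anxa2, Anxa11, S100a11, Anxa3 and Anxa1. The library ranges of the neighbours Anxa5 and Anxa6 overlapped, as did those of Anxa2, Anxa11 and S100a11 in turn and those of Anxa3 and Anxa1. In knockout the order was S100a10, Anxa5, Anxa2, Anxa6, Anxa7, Anxa4, S100a11, Anxa11, Anxa1 and Anxa3. There the neighbours Anxa2 and Anxa6, Anxa6 and Anxa7, and Anxa4 and S100a11 overlapped. Anxa2 thus stood at rank 6 in wild type and at rank 3 in knockout.

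The other annexin genes were nearly silent, and none passed the filter. Anxa10, a stomach annexin, was listed at 0 in every library. Anxa13, an intestinal and renal annexin, lay between 0.308 and 0.682 FPKM in the wild-type libraries and between 0.124 and 1.08 FPKM in knockout. Anxa8 and Anxa9 stayed below 1 FPKM in each library.

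Among the 14 other S100 genes listed, 7 were tested, and limma called 0 of them, as did voom on the recovered reads. At an unadjusted p under 0.05 there were 2, S100a6 and S100a4. The share of all tested genes at that level was not computed, so this count only describes the list. S100a6, which encodes calcyclin, measured 1.38, 0.698 and 1.01 FPKM in wild type against 1.60, 3.21 and 2.77 FPKM in knockout, with no overlap (log2 fold change 0.78 ± 0.206 SE; limma, adjusted p = 0.0644). S100a4, a marker of motile fibroblasts and monocytes, was at 0.0536, 0 and 0.471 FPKM in wild type against 0.385, 3.21 and 2.20 FPKM in knockout, and its groups overlapped (limma, adjusted p = 0.1056). It passed the filter only through its knockout values. S100a1, the most abundant of the others, was at 79.5 ± 18.1 FPKM in wild type against 80.6 ± 10.6 FPKM in knockout (SD, n = 3 each). It was named after its values were seen. Without KO1, 2 of the other S100 genes were called higher, where 4.03% of all tested genes were called higher. The median log2 fold change over the 7 was 0.18.

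Genes of membrane repair, in which annexins form a cap over the tear, included 2 called higher among 20 tested and 0 called lower. Their median log2 fold change was 0.19. For this list and those below, the shares of all tested genes were 5.30% called higher and 1.60% called lower. Both called genes encode subunits of calpains, the calcium-activated proteases that act at injured membrane. The small subunit gene Capns1, not particular to calpain 1, rose from 62.9 ± 3.88 to 94.0 ± 7.08 FPKM (limma, adjusted p = 0.0167). The large subunit gene of calpain 1, Capn1, rose from 8.82 ± 0.379 to 12.2 ± 0.996 FPKM (SD, n = 3 each, limma, adjusted p = 0.0352). No repair gene was called on omission of WT1, WT2, KO2 or KO3, 1 (Capns1) was on omission of WT3 and 4 were on omission of KO1. Among all tested genes, the share called higher was 2.40% without WT1, 1.15% without WT2 and 3.12% without WT3. It was 4.03% without KO1, 0.94% without KO2 and 2.41% without KO3. Genes called lower numbered 55 (without WT2) to 121 (without KO3) of the 10633. These shares apply to the lists below too. Ahnak, the giant scaffold that the annexin A2 and S100A10 complex carries to the membrane, went from 2.26 ± 0.0201 to 3.26 ± 0.672 FPKM with no call (limma, adjusted p = 0.126). Among the ferlin genes, Myof was higher in each knockout library and Dysf overlapped between the groups, and neither was called. Myof was at 0.976, 0.859 and 0.712 FPKM in wild type against 1.45, 2.57 and 1.81 FPKM in knockout, passing the filter through its knockout values (limma, adjusted p = 0.0509), whereas Dysf was at 1.37 ± 0.0545 and 1.25 ± 0.271 FPKM (adjusted p = 0.730).

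Genes of the plasminogen system, which the surface complex of annexin A2 and S100A10 binds into, moved in both directions, with 2 of 8 tested called higher and 1 called lower (median log2 fold change 0.010). Plau, the urokinase gene, rose from 0.770 ± 0.0535 to 2.41 ± 0.968 FPKM, passing the filter through its knockout values (limma, adjusted p = 0.0402). Eno1, a glycolytic enzyme that can also bind plasminogen and whose gene has a near copy that could share its reads, rose from 74.4 ± 11.5 to 118 ± 13.2 FPKM (adjusted p = 0.0336). Serpine2, the protease nexin gene, fell from 17.9 ± 5.07 to 7.25 ± 1.62 FPKM (SD, n = 3 each; limma, adjusted p = 0.0192). Plg, plasminogen itself, was at 1097 ± 38.0 FPKM in wild type against 907 ± 103 FPKM in knockout, with no call (limma, adjusted p = 0.188). Of the 8 tested, 3 had every knockout library below every wild-type library, Plg among them, and 2 had every one above. Over all tested genes those shares were 7.81% and 23.4%. Plgrkt, a plasminogen receptor gene, was at 0.968 ± 0.103 and 0.827 ± 0.249 FPKM, below the filter. No gene of the system was called on omission of WT2 or KO2, only Serpine2 was on omission of WT1, WT3 or KO1, and Serpine2 and Plau were on omission of KO3.

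Of the 7 formyl peptide receptor genes, which encode receptors of annexin A1, 5 were listed at 0 in every library. Fpr1 was at 1.90 ± 0.231 FPKM in wild type against 2.57 ± 0.769 FPKM in knockout (limma, adjusted p = 0.345) and was the only one tested. Limma called 0 of 1, voom called 0, and 0 had an unadjusted p under 0.05. Fpr2 measured 0.510, 0.525 and 0.356 FPKM in wild type against 0.888, 1.21 and 0.476 FPKM in knockout, so its groups overlapped.

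Genes that expose or recognise phosphatidylserine, the lipid that annexin A5 covers, included 3 called higher among 17 tested and 0 called lower, and their median log2 fold change was 0.19. The scramblase family genes Plscr1 and Plscr2 rose from 9.12 ± 1.18 to 17.3 ± 3.28 FPKM (limma, adjusted p = 0.0215) and from 10.9 ± 0.601 to 18.1 FPKM, with 20.3, 19.3 and 14.6 FPKM in KO1 to KO3 (adjusted p = 0.0258). These are near copies, so reads could be split between them. Mfge8, which bridges phosphatidylserine to phagocytes, rose from 8.03 ± 0.697 to 12.8 ± 2.57 FPKM (SD, n = 3 each; limma, adjusted p = 0.0457). None of them was called on omission of WT1, WT2 or KO2, and 1 was on omission of WT3 or KO1 (Plscr1) or of KO3 (Plscr2).

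Among 21 tested genes of actin and the cell cortex, to which annexins anchor, 1 was called higher and none lower. That count is near the 5.30% of all tested genes called higher. The median log2 fold change of the 21 was 0.30. Tln1, which encodes talin and links integrins to actin, rose from 18.4 ± 0.622 to 25.4 ± 1.62 FPKM (SD, n = 3 each; limma, adjusted p = 0.0236). The count was 0 on omission of WT1, WT2, WT3, KO2 or KO3. It was 6 on omission of KO1, where 4.03% of all tested genes were called higher.

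Markers of other cell types moved with the annexin genes in part. Summed over the 13 Kupffer cell markers, the level was 342 to 375 FPKM in wild type against 359 to 447 FPKM in knockout, with Vsig4, 1 of 13, called lower; of the most abundant, Cd5l overlapped between groups and C1qb was higher in each knockout library, and neither was called. For monocyte-derived and lipid-associated macrophages, the sum was 103, 55.1 and 91.7 FPKM in WT1 to WT3 against 77.5, 193 and 114 FPKM in KO1 to KO3, with 3 of 10 called higher. Its low WT2 and high KO2 are the libraries in which most annexin genes were lowest and highest. In KO1, however, this sum was below WT1 and WT3, whereas 9 of the 10 members were higher in KO1 than in each wild-type library. Lgals3, Gpnmb and Mmp12 were the called genes; Gpnmb was at 0.126, 0.160 and 0.174 FPKM in wild type against 2.42, 9.66 and 3.40 FPKM in knockout. Gpnmb and Mmp12 were below 1 FPKM in each wild-type library and reached the filter only by their knockout levels.

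Stellate cell and fibroblast markers summed to 156 to 180.3 FPKM in wild type against 189 to 276 FPKM in knockout, with 3 of 14 called higher, Col1a1, Col1a2 and Col3a1; Dcn and Colec11, the most abundant, were not called. Endothelial markers summed to 139 to 158 FPKM and 163 to 185 FPKM, with 3 of 12 called higher, Eng, Pecam1 and Lyve1, whereas Clec4g was not called. Cholangiocyte markers, with Spp1 highest, summed to 69.2, 36.9 and 58.0 FPKM in wild type against 45.1, 112 and 67.2 FPKM in knockout, with Krt23, 1 of 7, called higher. Spp1 stands in the macrophage list too and was not called. Adipocyte markers summed to 11.8 to 28.3 FPKM and 59.6 to 138 FPKM, with 2 of 4 called higher, Cidec and Cidea, which fatty hepatocytes also express, whereas Fabp4 was not called. Cidea and the cholangiocyte marker Krt23 had wild-type means of 0.137 and 0.764 FPKM and reached the filter only by their knockout levels. Adipoq, a defining fat cell gene, was at 0 in WT1, WT2 and KO1 and at most 0.723 FPKM elsewhere. The part of these cell types in the annexin differences was not tested.

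Other lists were low or overlapped. Neutrophil markers, led by S100a8 and S100a9 and with Mpo listed at 0 in every library, summed to 2.80 to 6.79 FPKM in wild type against 4.41 to 6.69 FPKM in knockout, and mesothelial markers, led by Krt19 and Upk3b, to 4.58 to 11.1 FPKM and 4.90 to 7.22 FPKM. Lymphocyte markers, led by Nkg7 and Cd4, summed to 2.80 to 3.77 FPKM and 2.01 to 6.84 FPKM, and none passed the filter. Limma called 0 of the 2 tested neutrophil and 0 of the 3 tested mesothelial markers, and 0 of either had an unadjusted p under 0.05. Red cell markers, led by Alas2 and Hba-a1, summed to 79.5 to 127 FPKM and 68.9 to 171 FPKM. Of the 6 tested, 2 were called higher, the near copies Hbb-b1 and Hbb-b2, although the median log2 fold change of the 6 was -0.41. Hbb-b2 was listed at 0 and Hbb-b1 at 0.284 FPKM or less in the wild-type libraries, so both reached the filter only by their knockout levels. The red cell sums overlapped between groups, and why these 2 genes differed from the rest of the list was not tested. Hepatocyte markers, led by Alb and Apoa1, summed to 57646 to 67040 FPKM and 53364 to 62713 FPKM, with 3 of 16 called lower, Cps1, Serpina1a and Tat. With 1 library left out, the macrophage calls numbered 0 to 3 (0 on omission of WT2) and the stellate cell calls 0 to 3 (0 on omission of WT2, 1 on omission of WT1 or WT3). The endothelial calls numbered 1 to 3 (1 on omission of WT1, WT2, WT3 or KO2) and the hepatocyte calls 1 to 3 (1 on omission of WT2 or KO2). The call among Kupffer cell markers was lost on omission of WT1, WT2, KO1, KO2 or KO3, and that among cholangiocyte markers on omission of WT1, WT2, KO2 or KO3. Of the adipocyte calls 1 was left on omission of WT2, and of the red cell calls 1 was left on omission of WT1, WT2 or WT3, whereas 2 red cell markers were also called lower on omission of KO2.

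**Figure D5:**
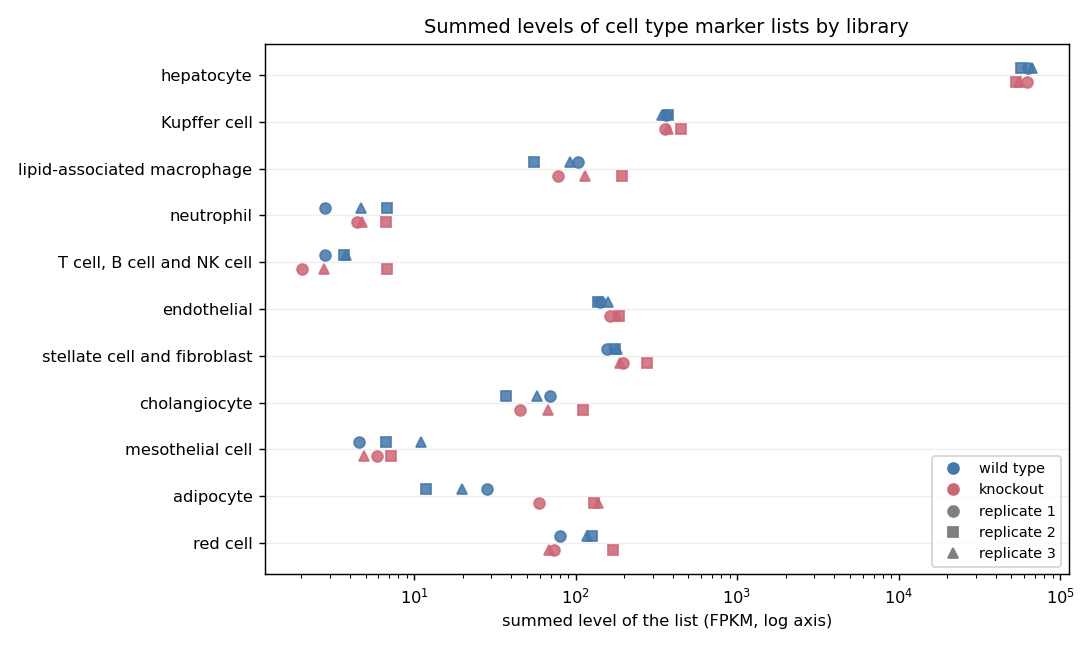
Summed level of each cell type marker list (horizontal log axis, FPKM) in each wild-type (blue) and knockout (red) library, with replicates 1 to 3 as circles, squares and triangles. Macrophage and cholangiocyte sums, which share the gene Spp1, are lowest in WT2 and highest in KO2. Both overlap between groups, as do the hepatocyte sums.

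Over the 6 libraries on log2(FPKM + 1), the genes whose pattern was most like that of Anxa2 were Pitrm1 (r = 0.9994), Phc2 (r = 0.9978), Capn1 (r = 0.9976), Gpd2 (r = 0.9975) and Decr2 (r = 0.9966). Pitrm1 encodes a mitochondrial peptidase, Gpd2 the mitochondrial glycerol-3-phosphate dehydrogenase and Decr2 a peroxisomal reductase of fatty acid breakdown. Their differences were smaller than that of Anxa2, with Pitrm1 at 10.7 ± 0.559 FPKM in wild type against 14.04 ± 0.858 FPKM in knockout (SD, n = 3 each). For S100a10 they were Raet1d, a ligand of natural killer cell receptors (r = 0.9952), Nek6 (r = 0.9944), Sirt5 (r = 0.9934), Treh (r = 0.9929) and Borcs7 (r = 0.9911). All these points share the same 6 libraries and the difference between their 2 groups, and 497 tested genes had an r above 0.95 with Anxa2 and 170 with S100a10, so the values describe likeness only.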

How the data were processed

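The authors deposited 1 table of FPKM values per gene and library. Per the submitters' processing notes, the tools were HISAT2 and Bowtie 0.12.2 and the builds mm10 and mm8. Their roles, the annotation, the use of strand and the handling of multi-mapping reads are each not given in the sources used here. Groups came from the sample titles. The members and gene lists were chosen with earlier results of these data known. The limma 3.58.1 test (two-sided, eBayes with a trend, R 4.3.3) was run on log2(FPKM + 1) of the genes whose mean over libraries reached 1 FPKM. Genotype was the single term, with Benjamini-Hochberg adjustment over all 10633. Fold changes on that scale understate the change of low genes. P-values measure only the spread between these libraries, which may be technical; an exact permutation test of 3 against 3 cannot go below 0.1.

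FPKM values of a gene are whole multiples of the value of 1 read. Whole reads (tolerance 0.001 reads, wider at high counts) came out for all 17549 genes that were above 0 in 4 or more libraries (100% of them). Since the tolerance widens with the count, that share is no check of the reads. The reads gave the depth and a voom fit chosen after seeing the data. Other settings tried were the TPM scale, quantile normalization, scaling by median of ratios, a 0.1 pseudocount, filters of 0 and 5 FPKM, array weights, robust or untrended eBayes, a block for the replicate number, and omission of each library.

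All members were named. Of other lists, the called genes (up to 4) or else the 2 with the smallest p, the 2 most abundant markers (1 cholangiocyte marker is not reported here) and markers at 0 were named, with Ahnak, Myof, Dysf, Plg, Plgrkt, Fpr1, Fpr2 and the 5 genes most like Anxa2 and S100a10. Other called markers, Adipoq and S100a1 were named after their values were seen. Gene positions are from GENCODE vM21 on GRCm38 (mm10). Python 3.11.15 and matplotlib 3.10.9 were used.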

Additional observations from a re-analysis of the deposited data

How the results depend on the processing

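The 9 members other than Anxa3 kept their direction under every alternative, and Anxa3 turned on the TPM scale (0.0089), with array weights (0.033), with voom on recovered reads, chosen after seeing the data (0.049), on omission of WT2 (0.077) and on omission of KO1 (0.16); its lowest value, -0.13, came on omission of WT3. The number of members called higher, 3 as reported, was 0 when no filter was used, 6 on the TPM scale, 5 with array weights, 6 with voom, 1 with the replicate number as a block (Anxa2), and 1 to 4 with 1 library left out. Over all genes, 564 higher and 170 lower calls as reported compare with 88 and 58 with no filter, 990 and 172 on the TPM scale, 346 and 232 with median-of-ratios scaling, 371 and 204 with quantile normalization, 280 and 122 with the replicate block, and 100 to 428 higher calls with 1 library left out.

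The other S100 count, 0 as reported, was 1 on the TPM scale, 2 with array weights and 0 to 2 with 1 library left out. The membrane repair count, 2 as reported, was 4 with a pseudocount of 0.1, a filter at 5 FPKM or robust estimation, 5 on the TPM scale or with array weights, 6 with voom, 0 with no filter, 1 with the replicate block and 0 to 4 with 1 library left out. The plasminogen system count, 3 as reported, was 0 with no filter, 1 with the replicate block and 0 to 2 with 1 library left out. The phosphatidylserine count, 3 as reported, was 0 with no filter and 0 or 1 with 1 library left out. The actin and cortex count, 1 as reported, was 3 on the TPM scale, 5 with array weights or voom, 0 with no filter or the replicate block and 0 to 6 with 1 library left out. Deviations of equally numbered libraries from their group means correlated at 0.17, -0.063 and 0.097, and those of unequally numbered libraries at -0.243 to 0.125. Deviations within a group add up to 0, so with so few libraries these values cannot settle whether the numbers pair them. Depth limits Anxa3, S100a11 and Anxa1 most, with lowest counts of 53 reads (KO1), 83 reads (WT2) and 87 reads (WT2).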
